A study of Danio rerio with 10 samples.

Results

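The muscle of 6-month-old zebrafish that carry human TPM3(E151G) was compared with the muscle of fish of the same age that carry human TPM3(WT). Both groups were AB strain fish without drug treatment, with 2 sequencing libraries per genotype (4 of the 10 samples of the series). The transgene was driven by the MLC2 muscle promoter and carried a myl7:EGFP heart reporter, so that human tropomyosin was made on top of the tropomyosins of the fish in both groups. The controls therefore also overexpressed a human tropomyosin. The study made 4 lines per construct, and the sources used here do not give which line was sequenced, the sex of the fish or the number of animals in a library. The deposited table lists 32265 zebrafish genes with 1 FPKM (fragments per kilobase of gene, scaled to the fragments sequenced) per genotype, in which the authors had combined both libraries. A gene was compared where its FPKM was 1 or more in 1 or both genotypes, which left 16572 genes. No spread between libraries and no p-value can be computed from 1 value per genotype, and the depth is unknown. The p-values and q-values that the authors deposited were not used. Genes are therefore described as higher or lower, and a gene counts as 2-fold apart by its log2 ratio of FPKM + 1. Adding 1 understates the distance between weakly expressed genes. Pairs of FPKM values give TPM3(E151G) first and TPM3(WT) second.

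Tropomyosin is a coiled-coil protein that lies along the actin filament and, with troponin, sets when myosin can reach actin. Calcium released from the sarcoplasmic reticulum moves tropomyosin off the binding sites and lets the muscle contract. In human muscle the TPM3 gene provides the tropomyosin of slow fibers, and mutations in it are known from nemaline myopathy, cap myopathy and congenital fiber type disproportion. The human transgene is not part of the zebrafish annotation, so its own RNA was not measured here. The oligo that made the mutant construct is shown because it carries the change that separates the groups. It was written 5′ to 3′ by the study as the forward primer, and the capitals mark the codon in which A452G (counted from the first base of the coding sequence) makes the protein change E151G.
TPM3 A452G-F: ctgagctggcaGGGtcccgttgccg

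Across all genes, 2888 (17.4% of 16572) were 2-fold or more higher in TPM3(E151G) and 4222 (25.5%) were 2-fold or more lower, with a median log2 ratio of -0.14. The FPKM of all genes summed to 1.97 times as much in TPM3(E151G) as in TPM3(WT) and to 1.39 times as much over nuclear genes alone. Scaling both columns to equal sums lowered each ratio by up to 0.98 on the log2 scale, moved the median of all genes to -0.93 and left 840 genes (5.07%) higher and 7877 genes (47.5%) lower. Each value below is given as deposited, with the value after equal sums named as such. A gene less than 1.97-fold higher as deposited is lower after equal sums, and a list is to be read against the medians of all genes, -0.14 and -0.93. Its counts as deposited are to be read against the 17.4% and 25.5% of all genes. Ratios differed with the level of expression. Of 112 genes with a mean FPKM of 1000 or more, 90 were 2-fold or more higher and 2, crp2 and pvalb2, were 2-fold or more lower. Their median log2 ratio was 1.39 as deposited and 0.42 after equal sums. For 638 genes with a mean FPKM from 100 to 1000 the medians were 0.69 and -0.28. Lists of abundant genes are to be read against these medians as well. Among 5805 genes with a mean FPKM from 5 to 20 the median was -0.42 as deposited and -1.30 after equal sums.

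**Figure D1:**
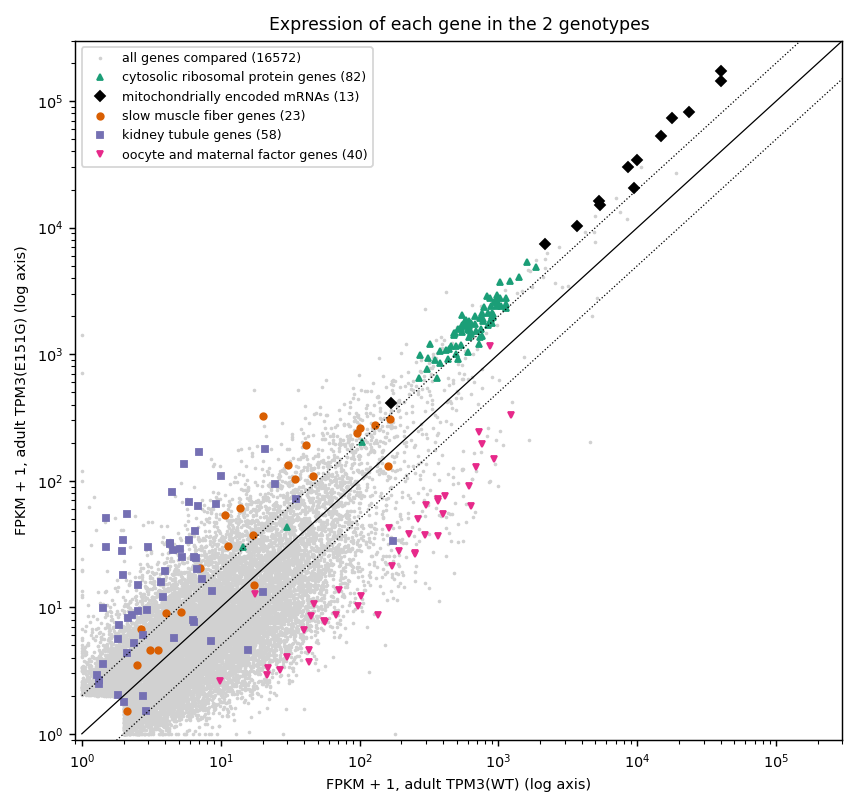
FPKM + 1 of each gene in adult TPM3(WT) (x axis) and adult TPM3(E151G) (y axis), both on log axes, with 5 gene lists coloured; the solid line marks equal values and the dotted lines 2-fold. All 13 mitochondrially encoded mRNAs and most of the 82 cytosolic ribosomal protein genes lie above the upper dotted line, and 38 of 40 oocyte genes lie below the lower one.

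Markers of skeletal muscle were abundant, but markers of several other tissues were present as well. The fast skeletal muscle genes ckma (creatine kinase), mylpfa (myosin light chain) and tnnt3b (troponin T) had FPKM values from 3163 to 9279 in the 2 genotypes. The heart markers myl7 and nppa were listed at 0 or under 0.1, and the ventricular myosin gene vmhc was at 1.51 against 1.01 FPKM. The lens gene cryaa was likewise at or near 0. Of the fat cell genes, plin1 was listed at 0 or under 0.1 and fabp11a was at 208 against 161 FPKM. Markers of oocytes, liver, pancreas, kidney, myelin and blood were present in both genotypes and differed between them, as described below. The oocyte gene zp3b was at 193 against 754 FPKM. Skin markers were present too but were not uniform. Of them, epcam was at 46.3 against 583 FPKM, krt5 at 77.8 against 306 FPKM and krt4 at 153 against 175 FPKM. In TPM3(E151A), epcam, krt5 and krt4 stood at 69.0, 298 and 192. The pancreas gene ctrb1 was at 446 against 88.7 FPKM and the liver gene fabp10a at 13.2 against 1.87 FPKM. The oocyte list held 0.221% of the FPKM sum in TPM3(E151G) and 1.59% in TPM3(WT). In bulk muscle, fewer cells of a type and less RNA per cell cannot be told apart.

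Of the 5 tropomyosin genes of the fish that were compared, 0 were 2-fold or more higher and 1 lower, with a median of -0.29 (-1.26 after equal sums). The main muscle tropomyosin, tpma, had a FPKM of 2763 in TPM3(E151G) and 5134 in TPM3(WT), a log2 ratio of -0.89 (-1.87 after equal sums). Among the 112 genes with a mean FPKM of 1000 or more, the others lower in TPM3(E151G) were crp2, pvalb2 and the metallothionein gene mt2. The tpma gene lies on GRCz11 chromosome 7 from 29680846 to 29690930. The fish ortholog of the transgene, tpm3, was at 130.5 against 159 FPKM. Beta-tropomyosin (tpm2) was at 168 against 127 FPKM, which is lower after equal sums (log2 ratio -0.56). The weakly expressed tpm4b was the only tropomyosin gene past 2-fold, at 2.09 against 5.27 FPKM. Its relative tpm4a was at 53.7 against 34.5 FPKM. In adult TPM3(E151A) muscle, compared with the same TPM3(WT) samples, tpma stood at 3042, tpm2 at 162 and tpm3 at 86.8.

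The partners of tropomyosin on the actin filament were mostly higher as deposited. Of 33 thin filament and nemaline myopathy genes compared (35 matched), 12 were 2-fold or more higher and 2 lower, beside 17.4% and 25.5% of all genes, with a median of 0.66 (-0.13 after equal sums). Nebulin (neb), the giant ruler of the filament, had a log2 ratio of 1.41 (0.44 after equal sums). Troponin is the calcium switch that moves tropomyosin. Its fast calcium sensor, troponin C (tnnc2), was at 4785 against 2163 FPKM. Fast troponin I (tnni2a.3), the inhibitory subunit, was at 4623 against 1639.6 FPKM. Fast troponin T (tnnt3b), which ties the complex to tropomyosin, was at 3465 against 3163 FPKM and had a log2 ratio of -0.85 after equal sums. The largest ratio of the list belonged to cfl2, the muscle cofilin that severs actin filaments and is itself a nemaline myopathy gene in humans, with 385 against 39.3 FPKM (log2 ratio 3.26, or 2.29 after equal sums). The leiomodins, which start and lengthen actin filaments, split: lmod3 stood at 11.1 against 3.41 FPKM, whereas lmod2b stood at 4.71 against 15.4 FPKM.

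The slow fiber program was the sarcomere list with the highest median. Of 23 slow muscle genes compared, 15 were 2-fold or more higher and 0 lower, and the median was 1.25 (0.34 after equal sums). The slow myosin-binding protein gene mybpc1 had the largest ratio, at 326 against 19.3 FPKM, and stood at 51.1 in TPM3(E151A). Its locus in the table holds 6 genes. The slow myosin heavy chain smyhc2 was at 52.6 against 9.73 FPKM, and smyhc1 at 19.4 against 6.06 FPKM. A slow troponin I gene, tnni1c, was at 189 against 40.2 FPKM. Slow troponin C (tnnc1b) was at 272 against 127 FPKM. The most abundant member, the slow light chain myl13, was at 309 against 165 FPKM. The members lower as deposited were tpm3, smtnl1 and prdm1a, none of them 2-fold. Among these, prdm1a, the switch gene of slow fiber fate, was at 0.525 against 1.12 FPKM.

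Fast myosin genes were less uniform. Of 11 compared, 5 were 2-fold or more higher and 1 lower (median 0.67, and -0.25 after equal sums). The light chain mylz3 was at 12367 against 4954 FPKM. A second light chain, mylpfa, was at 7662 against 4946 FPKM and had a log2 ratio of -0.35 after equal sums. The heavy chain myhc4, the most abundant myosin motor of the list, was at 4538 against 1688 FPKM. The fast heavy chain genes are near-identical copies. One of 2 gene IDs named myhz1.1 (ENSDARG00000102414) was at 96.8 against 12.2 FPKM. In contrast myhz1.2 was at 13.4 against 21.1 FPKM and myhz1.3 at 14.4 against 21.2 FPKM. Reads of such copies can be assigned to the wrong member, so these single values are uncertain.

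Genes of the Z-disc and M-band, which anchor actin and myosin filaments, were also mostly higher as deposited. Of 53 compared, 26 were 2-fold or more higher and 0 lower (median 0.91, and -0.05 after equal sums). A filamin C gene, flnca, which senses strain at the Z-disc, was at 78.7 against 8.50 FPKM. The thick filament gene mybpc3, whose human ortholog is best known from heart muscle, was at 282 against 42.4 FPKM. The chaperone-like crystallin cryabb stood at 7.51 against 0.114 FPKM. The Xin repeat gene xirp2a, whose protein gathers at sites of repair, was at 68.5 against 17.0 FPKM. The most abundant member, ldb3b (ZASP), was at 1289 against 404 FPKM. The core proteins of the disc were closer together. The alpha-actinin actn3b, which crosslinks actin in the Z-disc, was at 433 against 330.1 FPKM and had a log2 ratio of -0.59 after equal sums. Titin spans from Z-disc to M-band, and ttn.2 was at 94.0 against 49.4 FPKM.

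Calcium handling genes differed in both directions within families. Of 44 compared, 19 were 2-fold or more higher (43.2%) and 4 lower (9.09%) (median 0.80, and -0.11 after equal sums). The ryanodine receptor releases calcium from the sarcoplasmic reticulum. Its copy ryr1a, which in zebrafish is the form of slow fibers, was at 34.9 against 2.87 FPKM. The fast fiber copy ryr1b was at 35.1 against 23.4 FPKM. In TPM3(E151A) these genes were at 3.06 and 22.6. The calcium pump atp2a1l, which refills the store, was at 7226 against 2096 FPKM. Its relative atp2a2b went the other way, with 9.77 against 28.7 FPKM. Parvalbumins buffer calcium and speed relaxation in fish muscle. The most abundant one, pvalb4, was at 17048 against 6995 FPKM. The ratio was larger for pvalb7, at 3105 against 416 FPKM. In contrast pvalb2 was lower, at 2008 against 4707 FPKM, whereas TPM3(E151A) had 7486. The store-operated calcium channel gene orai1b was lower as well, at 1.56 against 4.45 FPKM.

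**Figure D2:**
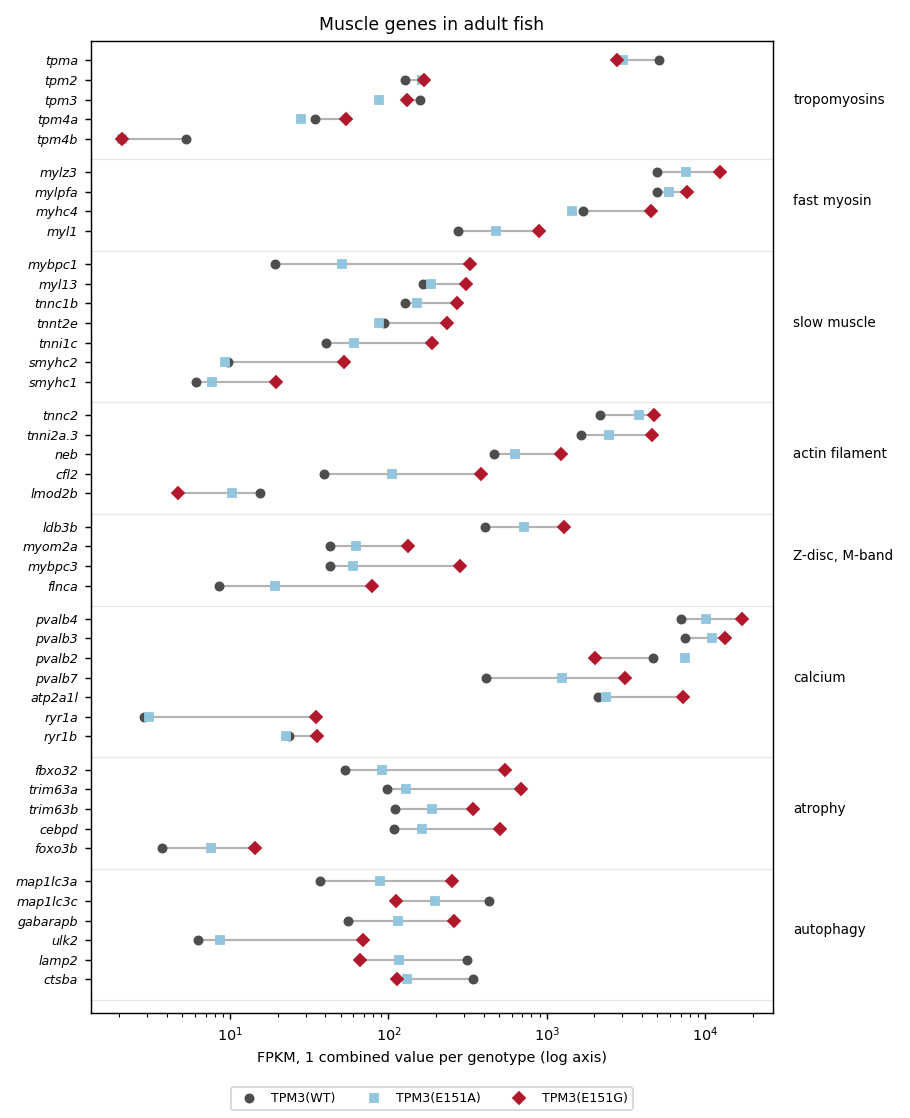
FPKM (x axis, log scale) of muscle genes in adult TPM3(WT), TPM3(E151A) and TPM3(E151G), with 1 combined value per genotype and no error bars; grey lines join TPM3(WT) and TPM3(E151G). The tropomyosins tpma and tpm4b lie to the left of TPM3(WT), as do pvalb2, map1lc3c, lamp2 and ctsba, while mybpc1, cfl2, ryr1a, fbxo32 and ulk2 lie to the right.

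The best known ubiquitin ligases of muscle atrophy, fbxo32, trim63a and trim63b, were higher under both scalings. The F-box ligase atrogin-1 (fbxo32), which marks muscle proteins for the proteasome, was at 545 against 52.9 FPKM (log2 ratio 3.34, or 2.37 after equal sums). In TPM3(E151A) it was at 90.7. The MuRF1 gene trim63a stood at 682 against 97.6 FPKM and trim63b at 342 against 110.4 FPKM. FoxO factors are known to switch on these ligases when insulin signalling is low. Of them, foxo3b was at 14.3 against 3.69 FPKM and foxo1a at 15.9 against 4.92 FPKM, whereas foxo3a was at 3.25 against 6.59 FPKM. The stress-responsive gene cebpd, a transcription factor induced by glucocorticoids, was at 508 against 109 FPKM. Another stress gene, gadd45ba, was at 443 against 96.5 FPKM. Over the list, 12 of 28 were 2-fold or more higher and 3 lower (median 0.80, and -0.15 after equal sums). Subunits of the proteasome, which degrades what the ligases mark, were mostly under 2-fold. Among 46, 5 were 2-fold or more higher and 2 lower, with a median of 0.24 as deposited and -0.71 after equal sums.

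Autophagy genes differed in both directions. The kinase gene ulk2, which starts an autophagosome, was at 69.2 against 6.31 FPKM. The membrane scramblase atg9b, which supplies lipid to it, was at 42.6 against 2.72 FPKM. Of the LC3 and GABARAP proteins that coat the growing membrane, map1lc3a was at 253 against 36.9 FPKM and gabarapb at 258 against 55.7 FPKM. Several lysosomal genes were lower. The lysosome membrane gene lamp2 was at 66.1 against 312 FPKM. The protease cathepsin B (ctsba) was at 112 against 342 FPKM and its other copy ctsbb at 3.46 against 39.7 FPKM. The LC3 gene map1lc3c was lower too, at 111 against 431 FPKM. Of 39 genes, 13 were 2-fold or more higher (33.3%) and 6 lower (15.4%), and the median was 0.44 (-0.51 after equal sums). In TPM3(E151A), lamp2 was at 117, ctsba at 131 and ctsbb at 1.94. The oocyte markers described below were lower in TPM3(E151G) as well, and their part in the lower values was not tested.

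All mRNAs of the mitochondrial genome were higher under both scalings. The 13 mRNAs were each 2-fold or more higher as deposited, with a median of 1.79 (0.81 after equal sums). The lowest ratio was that of mt-atp8, at 20411 against 9392 FPKM. The highest was that of mt-co1, cytochrome c oxidase subunit 1, at 172946 against 40205 FPKM. Nuclear genes of the same respiratory complexes had a lower median. Of 95, 21 were 2-fold or more higher and 2 lower, with a median of 0.70 as deposited and -0.27 after equal sums. These medians are near the 0.69 and -0.28 of all genes with a mean FPKM from 100 to 1000. The nuclear genes for mitochondrial ribosomal proteins, which translate the mitochondrial mRNAs, had a median below that of all genes under both scalings. Of 73, 1 was 2-fold or more higher and 12 (16.4%, beside 25.5% of all genes) lower (median -0.27, and -1.19 after equal sums). The large subunit gene mrpl1 was at 6.01 against 38.5 FPKM. For the cytosolic ribosome, 73 of 82 ribosomal protein genes were 2-fold or more higher and 0 lower as deposited, with a median of 1.37. After equal sums 0 were 2-fold or more higher, 0 lower, and the median was 0.39. Both medians are near the 1.39 and 0.42 of all genes with a mean FPKM of 1000 or more. Aminoacyl-tRNA synthetases charge tRNAs with amino acids. Of 33, 1 was 2-fold or more higher and 9 lower, a share of 27.3% that is near the 25.5% of all genes (median -0.59, and -1.38 after equal sums). The mitochondrial synthetase yars2 was at 1.17 against 8.01 FPKM.

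Uncoupling proteins carry protons or other ions across the inner mitochondrial membrane. The inner membrane carrier ucp1 was at 517 against 16.3 FPKM, with 71.2 in TPM3(E151A). The muscle form ucp3 was at 325 against 95.4 FPKM, and ucp2 at 175 against 86.6 FPKM. The locus listed for ucp1 (GRCz11 chromosome 1, 52687139 to 52869865) holds 7 genes of the table. Myoglobin (mb), the oxygen store of slow muscle, was at 275 against 75.8 FPKM. The master regulator of mitochondrial biogenesis, ppargc1a, was weak and not higher, at 1.02 against 2.11 FPKM. The mitochondrial transcription factor gene tfam was at 8.35 against 15.4 FPKM.

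Enzymes of energy metabolism differed in direction between their forms. Among 46 glycolysis and creatine kinase genes, 16 were 2-fold or more higher and 6 lower (median 0.41, and -0.51 after equal sums). The muscle creatine kinase ckmb was at 29968 against 10613 FPKM, and muscle phosphoglycerate mutase (pgam2) at 931 against 357 FPKM. The muscle glycogen phosphorylase pygmb stood at 21.0 against 6.00 FPKM. The liver form pygl stood at 4.53 against 48.5 FPKM. Glycogen synthase (gys1), which builds the store, was at 225 against 60.7 FPKM. Of the hexokinases, which trap glucose in the cell, hk2 was at 9.71 against 27.3 FPKM. Lipoprotein lipase (lpl), which takes fat from the blood into muscle, was at 176 against 13.1 FPKM. Genes of cholesterol and fatty acid synthesis had a median below 0. Of 32, 3 were 2-fold or more higher and 13 lower (median -0.52, and -1.22 after equal sums). The fatty acid elongase elovl7b was at 7.79 against 127 FPKM, and the sterol enzyme nsdhl at 6.77 against 42.2 FPKM. At the other end, the sterol oxidase gene msmo1 was at 21.1 against 4.03 FPKM.

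Chaperone genes differed in both directions. The reticulum chaperone BiP (hspa5) was at 102 against 646 FPKM. Grp94 (hsp90b1), which folds secreted proteins, was at 50.3 against 415 FPKM. The disulfide isomerase pdia4 was at 33.1 against 189 FPKM. Calreticulins hold calcium and fold glycoproteins, and calr3a was at 32.0 against 198 FPKM. Not all genes of the reticulum were lower, since the disulfide isomerase pdia3 was at 224 against 182 FPKM. In TPM3(E151A), hspa5, hsp90b1, pdia4 and calr3a stood at 111, 56.8, 40.4 and 64.3. Small heat shock proteins bind unfolding proteins in the cytosol. Of them, hspb6 was at 624 against 56.5 FPKM and hspb11 at 116 against 28.2 FPKM, while hspb1 was at 104 against 85.1 FPKM. The inducible hsp70l was at 9.25 against 1.13 FPKM, while the constitutive hspa8 was at 543 against 763 FPKM. Over the list, 10 of 41 were 2-fold or more higher (24.4%) and 14 lower (34.1%), beside 17.4% and 25.5% of all genes. The median of the list was -0.31 (-1.21 after equal sums). Among antioxidant genes the heme oxygenase hmox1a was at 27.1 against 1.89 FPKM, whereas the thioredoxin reductase gene txnrd1 was at 15.6 against 50.6 FPKM. Oocyte markers were lower in the same direction as hspa5 and hsp90b1, and their part was not tested.

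Genes of the circadian clock differed in both directions. In the clock, Bmal and Clock proteins activate Per, Cry, Rev-erb and Dec genes, whose products repress them in turn. The Bmal gene arntl1a was at 4.81 against 17.7 FPKM, and arntl2 at 1.93 against 8.52 FPKM. Both were lower. On the repressor side, per3 was at 15.2 against 2.83 FPKM. The Rev-erb gene nr1d2b stood at 34.4 against 7.86 FPKM, and nr1d1 at 48.2 against 16.8 FPKM. The Dec gene bhlhe40 was at 31.6 against 3.12 FPKM. Not all repressors were higher, since cry2 was at 6.71 against 12.8 FPKM. Of 34 clock genes, 15 were 2-fold or more higher (44.1%) and 4 lower (11.8%) (median 0.70, and -0.08 after equal sums). The hour at which the muscle was taken is not stated in these sources, and its part was not tested. Immediate early genes answer handling and stress within minutes. Of 30 compared, 14 were 2-fold or more higher (46.7%) and 1 lower (3.33%), with a median of 0.91 (0.26 after equal sums). The zinc finger gene egr1 was at 19.2 against 6.14 FPKM.

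**Figure D3:**
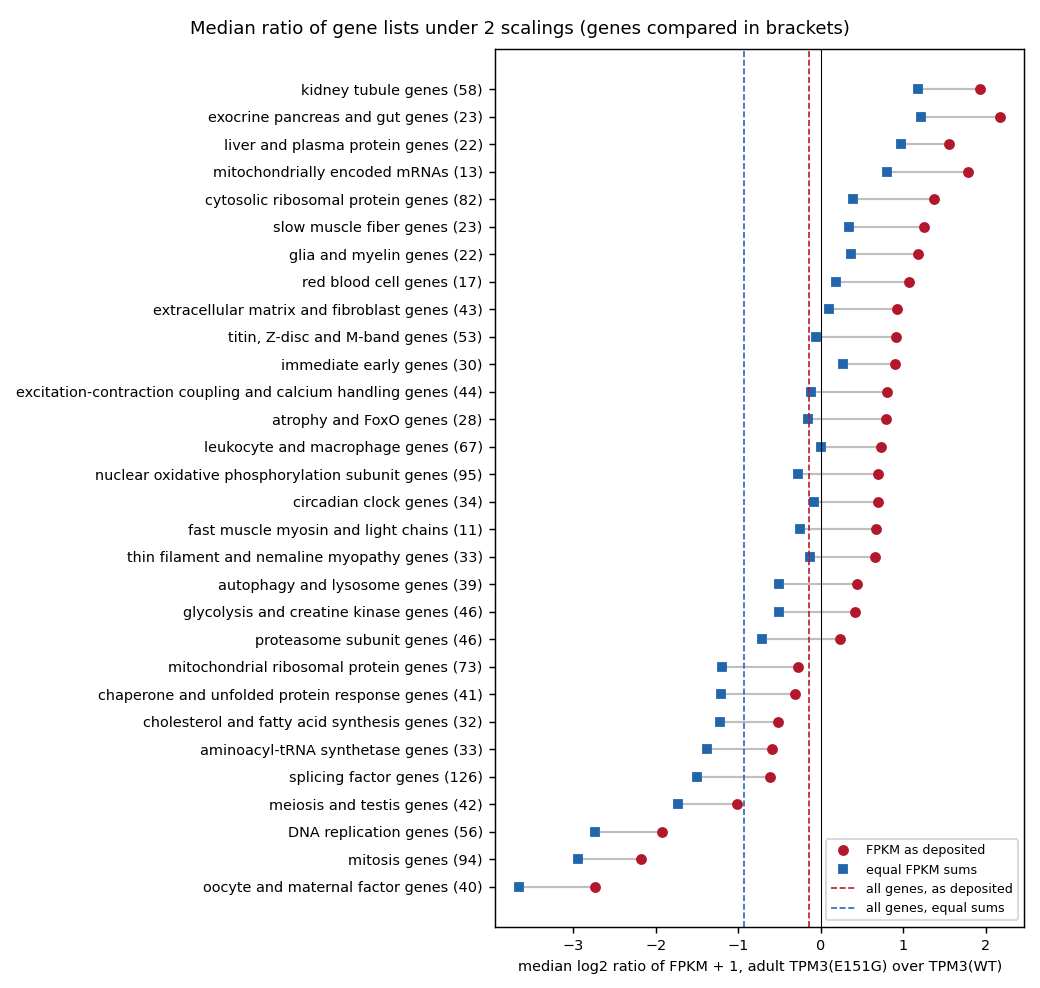
Median log2 ratio of FPKM + 1 (x axis, adult TPM3(E151G) over TPM3(WT)) of 30 gene lists, with the number of genes compared in brackets; circles show FPKM as deposited, squares equal FPKM sums, and dashed lines the medians of all genes. Lists of kidney (written after values were seen), pancreas, liver, mitochondrial mRNA and cytosolic ribosome genes lie above 0 under both, and cell cycle and oocyte lists lie farthest below the median of all genes under both.

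Outside muscle, some carriers of the kidney tubule had large ratios. Of the 15 named protein-coding genes with the largest ratio that were 2-fold or more higher under both scalings, 7 belong to a kidney tubule list that was written after these values were seen, so its counts and median describe that choice and support nothing. Organic ion and urate carriers of the tubule led it. The urate carrier slc2a9l1 was at 49.9 against 0.501 FPKM. The organic cation carrier slc22a2, through which the tubule takes up drugs and amines, was at 134 against 4.40 FPKM. The monocarboxylate carrier slc16a9a was at 168 against 5.93 FPKM. The sulfate carrier slc13a1 was at 81.2 against 3.48 FPKM. The sodium chloride cotransporter slc12a3, the thiazide target of the distal tubule, was at 66.6 against 4.93 FPKM. The carriers slco1f2, slco1f1 and slc47a2, which move organic anions and cations, had log2 ratios of 4.68, 4.33 and 4.11. The nephron transcription factor pax2a was at 18.9 against 5.71 FPKM. Of 58 genes compared, 44 were 2-fold or more higher and 2, dab2 and slc12a10.1, lower. The median was 1.93 (1.18 after equal sums), and the list summed to 1774 FPKM in TPM3(E151G), 444 in TPM3(WT) and 611 in TPM3(E151A). The gene with the largest ratio among named protein-coding genes above 0 in both genotypes, urad, an enzyme of urate breakdown, stood at 61.5 against 0.117 FPKM and at 0.0858 in TPM3(E151A).

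Digestive enzymes made in the exocrine pancreas were mostly higher under both scalings. Of 23 pancreas and gut genes compared, 18 were 2-fold or more higher and 1 lower (median 2.18, and 1.22 after equal sums). Chymotrypsinogen (ctrb1) was at 446 against 88.7 FPKM. Trypsin (prss59.1) was at 328 against 56.6 FPKM. The elastase gene ela2 had the largest ratio of the list, at 94.2 against 4.16 FPKM. The insulin gene ins of the endocrine pancreas was at 1.42 against 1.73 FPKM. The single 2-fold lower member, fabp6, the bile acid binding protein of the gut, had the lowest log2 ratio of the named protein-coding genes above 0 in both genotypes (-4.68), at 17.5 against 475 FPKM and 188 in TPM3(E151A). Of 59 liver genes matched, only 22 reached the minimum, some of them only through TPM3(E151G), and those had to be higher there. Of these, 15 were 2-fold or more higher and 2 lower (median 1.55, and 0.97 after equal sums). Over 58 liver genes without a minimum the median was 0.30. The liver fatty acid binding protein fabp10a was at 13.2 against 1.87 FPKM. The apolipoprotein gene apoa2 had a log2 ratio of 4.72. The retinol carrier rbp4, which other tissues also make, was the most abundant, at 1305 against 355 FPKM. The bile acid enzyme cyp7a1 was listed at 0 in TPM3(WT) and at 18.4 in TPM3(E151G).

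Genes of the female germ line lay at the lower end of the table. Of 40 oocyte and maternal factor genes compared, 38 were 2-fold or more lower and 0 higher, with a median of -2.74 (-3.65 after equal sums). The egg coat gene zp2.1 was at 62.3 against 635 FPKM, and zp3a.2 at 147 against 921 FPKM. Bucky ball (buc), the organizer of the oocyte's Balbiani body, was at 35.5 against 364 FPKM. The linker histone of eggs, h1m, was at 330.2 against 1230.1 FPKM. The only member higher as deposited was ybx1, an RNA-binding protein that many cells use, at 1169 against 867 FPKM, with a log2 ratio of -0.55 after equal sums. The list summed to 3099.8 FPKM in TPM3(E151G), 11361 in TPM3(WT) and 3931 in TPM3(E151A). Genes of gonadal steroid synthesis, on a list written after these values were seen, differed in both directions, with 2 of 11 2-fold or more higher (18.2%, beside 17.4% of all genes) and 4 lower (36.4%, beside 25.5%). The androgen-forming enzyme gene hsd17b3 was at 15.8 against 3.57 FPKM. The side chain cleavage enzyme cyp11a1, which makes pregnenolone from cholesterol, was at 2.85 against 37.1 FPKM. The next enzyme toward androgens, cyp17a1, was at 2.11 against 32.2 FPKM. The ovarian aromatase cyp19a1a was below 1 in both genotypes. Of 64 meiosis and testis genes matched, 42 reached the minimum, some of them only through TPM3(WT), and those had to be lower in TPM3(E151G). Of the 42, 1 was 2-fold or more higher and 21 lower (median -1.01, and -1.73 after equal sums). Over 63 of these genes without a minimum the median was -0.36. The synaptonemal complex gene sycp1, used in meiosis of either sex, was at 0.793 against 10.5 FPKM. Markers of testis cells were low in both genotypes. The Sertoli cell factor dmrt1 was at 1.40 against 0.775 FPKM and gsdf at 0.686 against 1.09 FPKM. The sperm tail gene tekt1 was at 1.57 against 0.757 FPKM. In TPM3(E151A), dmrt1, gsdf and tekt1 stood at 27.1, 30.3 and 36.5, and sycp1 at 28.7.

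Cell division genes were lower together with the egg genes. For DNA replication, 48 of 56 were 2-fold or more lower and 0 higher (median -1.93, and -2.74 after equal sums). The origin protein gene orc1 was at 1.15 against 21.8 FPKM. Geminin (gmnn), which blocks renewed licensing of origins, was at 75.3 against 557 FPKM. For mitosis, 73 of 94 were 2-fold or more lower and 3 higher (median -2.18, and -2.94 after equal sums). The anaphase activator cdc20 was at 10.3 against 156 FPKM. The germ cell cyclin ccna1 was at 102 against 639.8 FPKM, and the oocyte kinase wee2 at 21.9 against 125 FPKM. The proliferation antigen mki67 was at 2.76 against 27.3 FPKM. Splicing factors gave 16 of 126 2-fold or more higher (12.7%) and 41 lower (32.5%), nearer to the 17.4% and 25.5% of all genes. Their median was -0.62 (-1.50 after equal sums). The part of oocyte RNA in these lists was not tested.

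**Figure D4:**
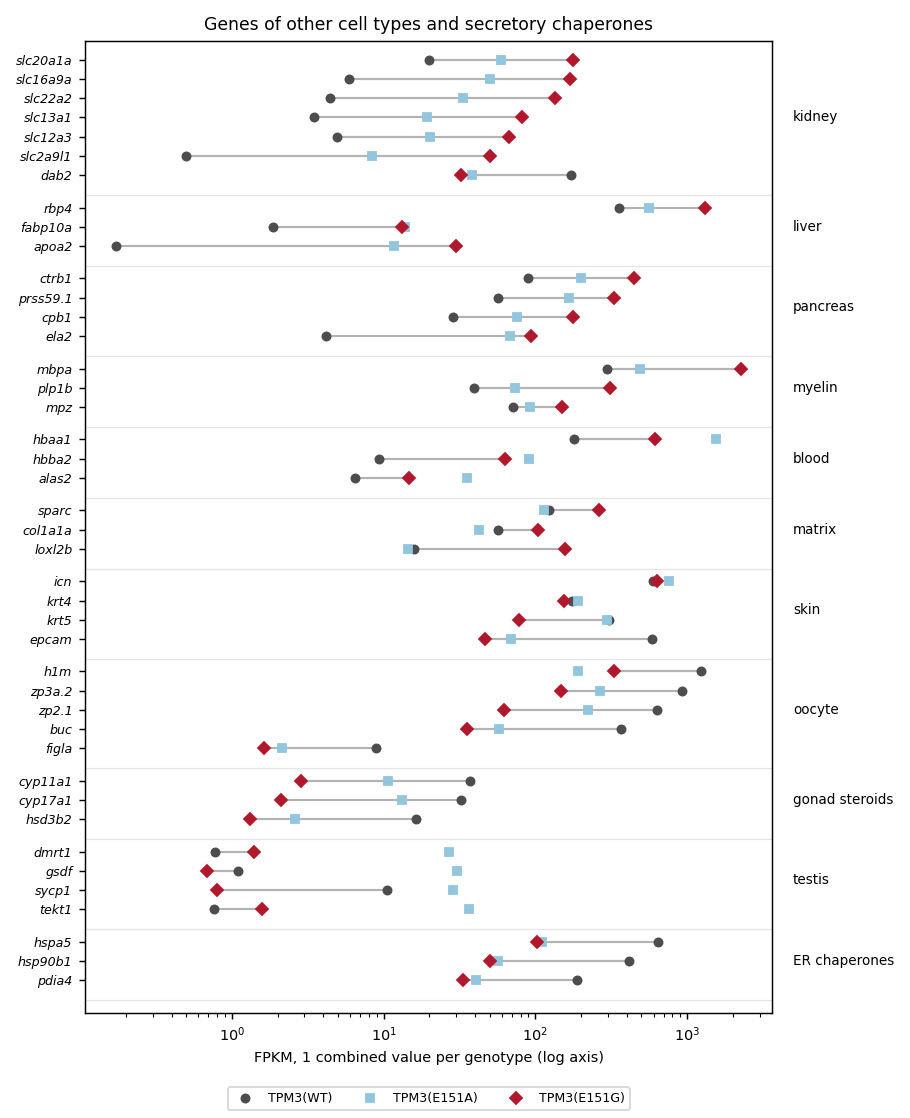
FPKM (x axis, log scale) of genes from lists of other cell types and of endoplasmic reticulum (ER) chaperones in adult TPM3(WT), TPM3(E151A) and TPM3(E151G), with 1 combined value per genotype and no error bars; grey lines join TPM3(WT) and TPM3(E151G). Kidney genes other than dab2, liver, pancreas and myelin genes lie to the right in TPM3(E151G), and the oocyte, gonadal steroid and ER chaperone genes drawn lie to the left.

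Other cells of the muscle bed had medians above that of all genes for nerve, matrix, blood and leukocyte lists. Of 22 glia and myelin genes, 15 were 2-fold or more higher and 0 lower (median 1.17, and 0.37 after equal sums). The myelin gene mbpa was at 2267 against 295 FPKM, and mpz, the main protein of mammalian peripheral myelin, at 149 against 71.3 FPKM. Matrix and fibroblast genes gave 16 of 43 2-fold or more higher and 1 lower (median 0.92, and 0.10 after equal sums). Without a minimum their median over 65 genes was 0.60. The collagen cross-linking enzyme loxl2b was at 156 against 15.9 FPKM, and at 14.4 in TPM3(E151A). The fibrillar collagen gene col1a1a was at 105 against 56.5 FPKM, which is lower after equal sums (log2 ratio -0.09). Red blood cell genes gave 10 of 17 2-fold or more higher and 1 lower (median 1.07, and 0.18 after equal sums). Without a minimum their median over 24 genes was 0.55. The globin hbaa1 was at 610.1 against 179.8 FPKM, and at 1548 in TPM3(E151A). The heme synthesis gene alas2 was at 14.7 against 6.49 FPKM. Gene IDs named hbba1, another globin, were at 572 against 439 FPKM and 102 against 122 FPKM. Both were lower after equal sums (log2 ratios -0.60 and -1.22). Leukocyte genes gave 30 of 67 2-fold or more higher and 7 lower (median 0.73, and 0.0041 after equal sums). After equal sums 10 were 2-fold or more higher and 14 lower. Over 101 leukocyte genes without a minimum the median was 0.32. The pan-leukocyte gene ptprc was listed at 0 in both genotypes. The lysozyme gene lyz of granulocytes and macrophages was at 519 against 102 FPKM. Skin and epithelial genes gave 10 of 56 2-fold or more higher (17.9%) and 11 lower (19.6%), beside 17.4% and 25.5% of all genes (median -0.20, and -1.05 after equal sums). The keratin krt5 of basal skin cells was at 77.8 against 306 FPKM, and krt4 of the surface layer at 153 against 175 FPKM. The epithelial adhesion gene epcam was at 46.3 against 583 FPKM. On the higher side, the simple epithelial keratins krt18 and krt8 were at 174 against 52.3 FPKM and 309.7 against 139.8 FPKM.

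Genes of the nerve-muscle contact and of excitability that reached the minimum had medians above that of all genes. Of 16 junction genes compared (33 matched), 6 were 2-fold or more higher and 1 lower (median 0.90, 0.11 after equal sums, and 0.30 over 32 genes without a minimum). The acetylcholine receptor subunit chrna1 was at 40.2 against 17.6 FPKM. Acetylcholinesterase (ache), which ends the signal, was at 83.8 against 32.4 FPKM. The muscle sodium channel scn4ab, which carries the action potential of the fiber, was at 28.0 against 12.1 FPKM. Among 51 voltage-gated channel genes compared (of 155 matched), 16 were 2-fold or more higher and 6 lower (median 0.73, and 0.08 after equal sums). Without a minimum the channel median over 148 genes was 0.03, so it depended on the filter. A list of 8 genes was taken from the qRT-PCR assays on adult fish. Of these, 6 reached the minimum of 1, all of them only through TPM3(WT), so they had to be lower in TPM3(E151G). Of the 6, 5 were 2-fold or more lower, from low levels. Over the 8 genes without a minimum the median was -1.08. The calpain gene capn12 was at 0.0386 against 1.53 FPKM. The ciliary transition zone gene rpgrip1l was at 0.728 against 4.14 FPKM. They had been picked on the same samples, so their direction adds no independent evidence. The lipid flippase gene atp10a was at 0.161 against 1.33 FPKM. The gene dock5 was below 1 in both genotypes.

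Other single genes were at the ends of the table. The C-reactive protein gene crp2, at a locus that holds 9 genes, was at 201 against 4559 FPKM and at 407 in TPM3(E151A). The cathepsin L gene ctsl.1 was at 13.1 against 318 FPKM, and at 11.1 in TPM3(E151A). The sugar-transferring enzymes st3gal1 and gbgt1l4 had log2 ratios of -4.04 and -3.97. The class I histocompatibility gene mhc1uba was at 0.0308 against 14.9 FPKM and listed at 0 in TPM3(E151A). The methyltransferase gene mettl10 was listed at 0 in both mutant groups and at 178 in TPM3(WT), at a locus that holds 3 genes. In embryos it was at 126 in TPM3(E151G) and listed at 0 in TPM3(WT). On the higher side, the chemokine gene ccl36.1 was at 46.3 against 0.464 FPKM, and at 33.6 in TPM3(E151A). The parathyroid hormone gene pth1b was at 28.3 against 0.523 FPKM. The zinc finger gene znf1179 was at 39.5 against 0.268 FPKM, at a locus that holds 105 genes. For each of these genes, from crp2 to znf1179, the TPM3(E151A) value lay nearer to TPM3(E151G) than to TPM3(WT) in FPKM. That did not hold for all genes at the ends of the table. The gene epdl1 was at 149 against 7.47 FPKM and at 15.5 in TPM3(E151A), nearer to TPM3(WT). The TPM3(E151A) values of urad, ucp1 and slc2a9l1 likewise lay nearer to TPM3(WT). Both adult comparisons used the same TPM3(WT) samples, so a value peculiar to those samples enters each of them.

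In adult TPM3(E151A) muscle the median over all genes was -0.22, beside -0.14 in TPM3(E151G). There, 9.9% of 16865 genes were 2-fold or more higher and 19.2% lower. The medians that follow give TPM3(E151A) first and TPM3(E151G) second. As deposited, slow muscle genes had 0.51 and 1.25, but after equal sums 0.43 and 0.34. Atrophy genes had 0.15 and 0.80, but 0.08 and -0.15 after equal sums. Tropomyosin genes had -0.75 and -0.29, but -0.85 and -1.26 after equal sums. The order of these medians turned with the scaling, but equal sums also moved the median of all genes by unlike amounts. After equal sums it was -0.29 in TPM3(E151A) and -0.93 in TPM3(E151G). Set against the all-gene median of its own comparison, each order held under both scalings. Slow muscle and atrophy medians stood farther above it in TPM3(E151G), and the tropomyosin median farther below it in TPM3(E151A). The order did not turn for red blood cell genes, at 1.67 and 1.07 as deposited and 1.61 and 0.18 after equal sums. Nor did it turn for meiosis and testis genes, at 0.85 and -1.01 as deposited and 0.78 and -1.73 after equal sums. The meiosis and testis medians cover 61 genes in TPM3(E151A) and 42 in TPM3(E151G). Each comparison applied the minimum to its own values, so these are not medians of the same genes. The FPKM sums of TPM3(E151A) and TPM3(WT) were closer, and equal sums moved the median of all genes from -0.22 to -0.29. In embryos of 2 days, TPM3(E151G) was compared with its own TPM3(WT) library, with 1 library per genotype. There the median over all genes was 0.04 as deposited and -0.27 after equal sums. For slow muscle genes it was 0.42 and 0.07, and for atrophy genes 0.06 and -0.24. For oocyte genes it was 0.34 and -0.0045, over only 5 genes compared in embryos beside 40 in adult TPM3(E151G). For replication genes it was 0.27 and -0.03. Of 17581 genes compared in embryos, 0.637% were 2-fold or more higher and 1.79% lower, and fbxo32 was at 1.37 in TPM3(E151G) embryos and 0.833 in TPM3(WT) embryos.

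**Figure D5:**
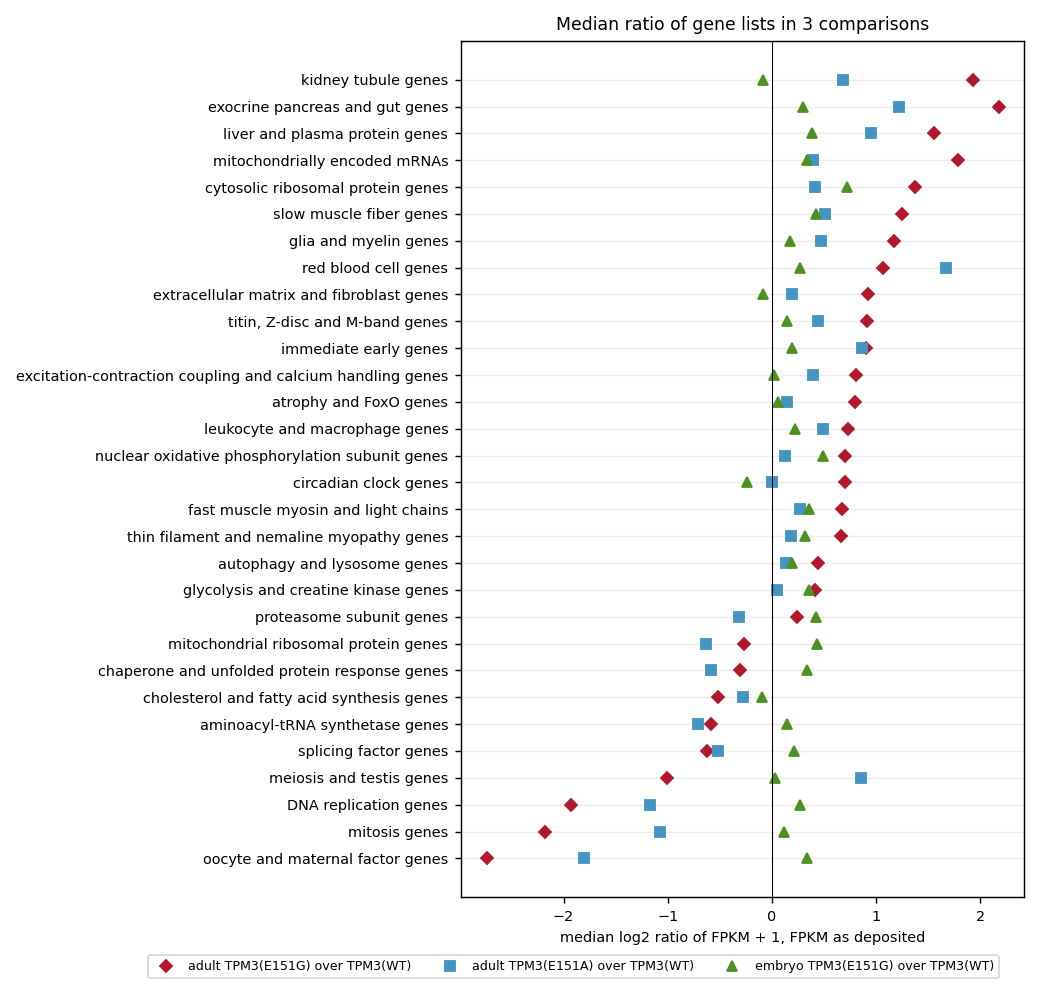
Median log2 ratio of FPKM + 1 (x axis, FPKM as deposited) of 30 gene lists in adult TPM3(E151G) over TPM3(WT) (diamonds), adult TPM3(E151A) over TPM3(WT) (squares; the same TPM3(WT) samples) and 2-day embryo TPM3(E151G) over TPM3(WT) (triangles). As deposited, slow muscle genes stand at 1.25, 0.51 and 0.42, beside all-gene medians of -0.14, -0.22 and 0.04. The order of the adult slow muscle medians turns after equal sums, which move the all-gene medians by unlike amounts. Oocyte genes stand at -2.74, -1.80 and 0.34, the embryo value over only 5 genes, beside 40 in each adult comparison.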

How the data were processed

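RNA from adult muscle was depleted of ribosomal RNA, made into strand-specific libraries and sequenced on an Illumina NovaSeq. The submitters' notes name bcl2fastq 2.20, Trimmomatic 0.36, HISAT2, the GRCz11 build, featureCounts 1.6.3 and DESeq2 1.22.2. The authors deposited FPKM per gene, with the 2 adult libraries of a genotype combined into 1 value. The way the FPKM were computed and combined is not stated in these sources. The tables also hold the authors' fold changes, p-values and q-values, which were not used. The depth is unknown, and no error can be given.

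Genes with FPKM of 1 or more in 1 or both genotypes were compared by log2((E151G + 1) / (WT + 1)), as deposited and after equal FPKM sums, in Python 3.11.15 with pandas 2.3.3 and numpy 2.4.6. The steps were tested on simulated data. Genes were picked from the 15 named protein-coding genes with the largest ratio in each direction, past 2-fold under both scalings. A gene listed at 0 in either genotype, such as cyp7a1 or mettl10, has no ratio and was left out of that ranking. Of the lower ones, nanog, cyp2x7, fam110a, ccna2, bora and fhdc3 were not described above. The rule also covered up to 4 list members by level and 4 by ratio. Further genes came from the qRT-PCR assays, the defining markers and the tropomyosins. Genes outside this rule were named for their role, with their values seen, among them tfam, xirp2a, hk2, foxo3a, mki67, pdia3, hspb1, krt18 and mettl10. Members and lists were chosen with earlier results of these data known, and the kidney, gonadal steroid and tropomyosin lists after values were seen. A table of 1 FPKM per genotype could not be fitted with the planned limma model. Alternatives were other scalings, pseudocounts, minimums and fold limits.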

Additional observations from a re-analysis of the deposited data

Results flagged for a closer look

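A few genes were 2-fold or more apart in adult muscle and 2-fold or more apart the other way in 2-day embryos, under both scalings. Each embryo genotype has 1 library, the tissues differ, and the difference between ages was not tested. The epithelial adhesion gene epcam had an adult log2 ratio of -3.63 and an embryo log2 ratio of 2.01, with 76.9 FPKM in TPM3(E151G) embryos and 18.3 in TPM3(WT) embryos. The ribonucleotide reductase gene rrm2, which supplies nucleotides for DNA synthesis, had -2.13 in adults and 4.01 in embryos for 1 of 2 gene IDs with this symbol. Its embryo values were 48.6 against 2.08 FPKM. The stress-induced nuclear protein gene nupr1 had 3.71 in adults, with 129 against 8.95 FPKM, and -1.02 in embryos, with 3.98 against 9.11 FPKM. The kidney glucose carrier gene slc5a2 had 2.61 in adults and -1.56 in embryos, where it was low, at 0.134 against 2.34 FPKM. The exchange factor gene arhgef3l had 2.41 in adults and -1.07 in embryos, with 3.18 against 7.78 FPKM there. The membrane anchor gene pigp, which takes part in GPI anchor synthesis, had -2.18 in adults and 1.29 in embryos, with 6.25 against 1.95 FPKM there.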

How the results depend on the processing

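The counts of 2888 higher and 4222 lower genes depended on the scaling. Equal FPKM sums gave 840 higher and 7877 lower, and equal sums over nuclear genes gave 1638 higher. A limit of 1.5-fold gave 4846 higher, and a limit of 3-fold gave 1160 higher and 2056 lower. Median-of-ratios scaling, a pseudocount of 0.1, a minimum of 5 or none, and protein-coding genes alone left both counts within 1.5 times. Equal sums turned the direction of 23 of 57 list medians, equal nuclear sums 9, median-of-ratios scaling 2, no minimum 3, a minimum of 5 turned 1 of 56, and a pseudocount of 0.1 and protein-coding genes alone 0. Of 41 genes (largest ratios, tropomyosins and qRT-PCR genes), equal sums turned 2 and equal nuclear sums 1. Other genes in the text turned after equal sums as well, among them tnnt3b, mylpfa, actn3b, ybx1 and col1a1a. No paired analysis was possible because both adult libraries of a genotype were combined into 1 FPKM, and leaving out a library was not run for the same reason. With unknown depth, low values carry a counting error that cannot be given.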
